A study of Mus musculus with 10 samples.

Results

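The genes described here are the mouse potassium channel genes, taken as every gene whose symbol starts with Kcn and whose Ensembl identifier is in both gene lists of the study, without antisense symbols ending in "os" and without pseudogenes. Of 30406 genes in both lists, 97 met this rule. They comprise 94 protein-coding genes and 3 non-coding transcripts that the symbol rule let through, Kcnq1ot1, Kcnmb4os1 and Kcnmb4os2. The rule used names only, but it was chosen with earlier results of these data known. The study asked how the medial prefrontal cortex (mPFC) of male C57BL/6N mice over 2 months old differs between social ranks, which are set by a tube test in which mice push each other out of a narrow tube. The groups were rank 1 (dominant, n = 5 libraries) and rank 4 (subordinate, n = 5 libraries), and the labels name no allele or drug for either. Each library pooled mPFC punches of 2 or 3 mice, taken 1 day after the last test and dissociated with papain for 60 min at 37 °C, so single animals cannot be told apart. Transcripts were counted as unique molecular identifiers (UMIs) per cell on the 10x Genomics platform.

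A potassium channel lets potassium leave or enter the cell down its gradient. In neurons the voltage-gated channels (Kv families) end the action potential and set firing rate, while inward rectifiers and two-pore-domain channels hold the resting potential. In glia and mural cells, the contractile cells of the vessel wall, potassium channels clear potassium released by neurons and couple the metabolic state to vessel tone. Most channels are assembled from 4 pore subunits, some joined by partner subunits that form no pore themselves.

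After removal of 4004 called doublets and of cells with under 500 genes or over 15% mitochondrial UMIs, 45764 of 64937 deposited barcodes remained. The libraries held between 4442750 and 29278466 UMIs, with medians of 1327 to 2673.5 UMIs per kept cell. Cells were clustered without any Kcn gene, and a cluster was named after a cell type only from marker genes that hold no Kcn gene. All names below therefore mean "like" that type: 16492 excitatory neurons, 2185 inhibitory neurons, 8956 astrocytes, 3194 oligodendrocyte precursors, 336 committed oligodendrocyte precursors, 2280 oligodendrocytes, 3591 microglia, 4358 endothelial cells, 1645 pericytes and 527 smooth muscle cells. Genes induced by activity or stress led some clusters: Egr4, Npas4 and Arc led 1243 excitatory neurons, and Ccl4 and Ccl3 led 1327 microglia. A level is the UMIs of a gene summed over the cells of a class in one library and scaled to a fixed total over all genes in those cells (CPM), used where a library held at least 20 such cells. It is given as mean ± SD over libraries, counts 3′ ends without regard to gene length, and is compared between classes for the same gene only.

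The 10 libraries fell into technical sets. Replicates 1 to 3 of both ranks were deposited with one gene list and replicates 4 and 5 with another. The 15 pairs of libraries within replicates 1 to 3 shared 420 cell barcode sequences, 6 to 104 a pair, and the 6 pairs within replicates 4 and 5 shared 137, 7 to 44 a pair. The 24 pairs across the sets shared 22, with 0 to 4 a pair. Among kept cells, 262 barcode sequences occurred in more than 1 library, in 524 cells. The sets are equal in both ranks, and values that differ between them are given below beside the results they touch.

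Every pore subunit carries a selectivity filter, the short stretch that lets potassium pass and holds sodium back. Its coding signature was searched in frame on the sense strand of 1 coding transcript per gene, as a threonine or serine codon (ACN, TCN, AGT or AGC), any codon, a glycine codon (GGN), a tyrosine or phenylalanine codon (TAT, TAC, TTT or TTC) and another glycine codon. It was present in 77 of the 94 coding Kcn genes (81.9%) and in 567 of 21522 coding genes of the shared list (2.63%). All coding members of the Kv, inward-rectifier, small-conductance, sodium-activated and two-pore-domain families held it, including 14 of 14 two-pore-domain genes, of which 11 held it more than once. None of the 12 partner-subunit genes held it, and among 6 large-conductance genes the pore genes Kcnma1 and Kcnu1 did and the Kcnmb subunits did not. Of the 88 matches, 61 had a tyrosine codon and 27 a phenylalanine codon in the fourth place.

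The filters of the genes on which the class results turn are shown 5′ to 3′ on the coding strand, from GENCODE M21 transcripts with GRCm38 positions, with the 15 signature bases in capitals. The cell class in brackets is where each gene had its highest level, so the set shows how alike the filter codons are in genes whose leading classes differ.
Kcnj8 (pericyte), chr6:142566433-142566477, minus strand: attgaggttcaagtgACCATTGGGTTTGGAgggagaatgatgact
Kcnj2 (endothelial), chr11:111072192-111072236, plus strand: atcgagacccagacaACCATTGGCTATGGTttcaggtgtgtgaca
Kcnc1 (inhibitory neuron), chr7:46427958-46428002, plus strand: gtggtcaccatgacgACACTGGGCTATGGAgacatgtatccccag
Kcnc2 (inhibitory neuron), chr10:112456214-112456258, plus strand: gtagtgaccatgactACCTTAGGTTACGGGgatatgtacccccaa
Kcna1 (oligodendrocyte), chr6:126642213-126642257, minus strand: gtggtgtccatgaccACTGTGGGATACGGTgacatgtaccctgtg
Kcna5 (smooth muscle), chr6:126533730-126533774, minus strand: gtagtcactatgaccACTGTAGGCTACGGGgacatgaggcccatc
Kcnh3 (excitatory neuron), chr15:99232914-99232958, plus strand: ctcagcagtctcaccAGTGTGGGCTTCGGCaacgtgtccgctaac
Kcnh8 (oligodendrocyte precursor), chr17:52877976-52878020, plus strand: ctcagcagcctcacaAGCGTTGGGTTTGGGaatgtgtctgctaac
Kcnk13 (oligodendrocyte), the second of its 2 matches, chr12:100061361-100061405, plus strand: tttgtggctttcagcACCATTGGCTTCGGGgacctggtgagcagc
Kcnk1 (astrocyte), whose stretch spans an intron: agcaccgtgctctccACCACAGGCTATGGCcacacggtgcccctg
Kcnk6 (microglia), whose stretch spans an intron: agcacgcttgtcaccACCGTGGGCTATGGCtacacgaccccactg

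The 97 genes took 376132 UMIs in named cells. Kcnk16 and Kcnj1 had none, and 74 genes had at least 200 UMIs. Of these 74, 32 had their highest mean level in excitatory neurons (43.2%, against 17.1% of the 13608 genes with as many UMIs), and 14 in inhibitory neurons (18.9%, against 13.9%). The glial and vascular classes held the top level of few members: astrocytes 6 (8.11%, against 8.97%), oligodendrocyte precursors 5 (6.76%, against 13.2%), microglia 4 (5.41%, against 7.97%), pericytes 4 (5.41%, against 7.06%), smooth muscle 4 (5.41%, against 6.65%), oligodendrocytes 3 (4.05%, against 5.92%), and endothelial cells and committed precursors 1 each (1.35%, against 9.47% and 9.86%). For 34 of the 74 the top class was above the next in every library that held both (45.9%, against 22.3% of the 13608 genes), and for 13 the ranges over libraries did not overlap (17.6%, against 9.1%). Class against class is a description of clusters of the same cells and carries no test.

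The members' share of all UMIs had a lowest, median and highest value of 0.288%, 0.422% and 0.533% over 10 libraries in excitatory neurons, and of 0.315%, 0.382% and 0.554% in inhibitory neurons. Pericytes had 0.18%, 0.274% and 0.375%, and oligodendrocyte precursors 0.176%, 0.257% and 0.323%. Precursors were above pericytes in 6 of 10 libraries, those of replicates 1, 4 and 5, and below in replicates 2 and 3 of both ranks. Microglia (median 0.113%) and endothelial cells (median 0.0691%) had the lowest shares among the classes with 10 libraries. Excitatory shares were between 0.485% and 0.533% in the 4 libraries of replicates 4 and 5, and between 0.288% and 0.426% in the 6 others. Among those 6, replicate 1 of rank 1 and rank 4 had 0.418% and 0.426%, and replicates 2 and 3 had 0.288% to 0.319%. In endothelial cells replicate 1 had 0.0808% and 0.112%, replicates 2 and 3 had 0.0277% to 0.0408%, and replicates 4 and 5 had 0.0574% to 0.148%.

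**Figure D1:**
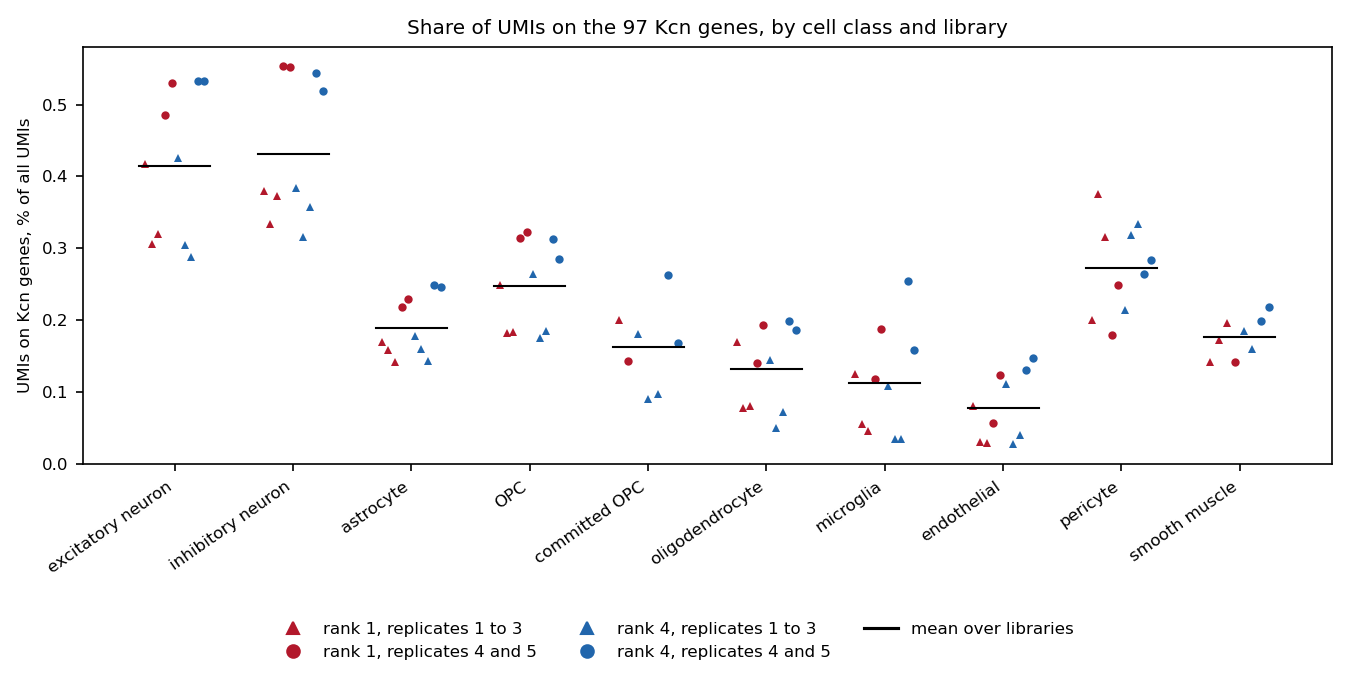
Share of all UMIs that fell on the 97 Kcn genes (vertical axis, percent) in each of 10 cell classes (horizontal axis), with 1 point per library, colours for rank, shapes for the technical set and a line for the mean. In excitatory neurons the 4 libraries of replicates 4 and 5 lie between 0.485% and 0.533%, above the 6 others.

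In mural cells, Kcnj8 and Kcne4 had the largest leads of pericytes over the next class. Kcnj8, the pore subunit of the ATP-sensitive channel of vessels, which opens when cell energy is low, had a lowest, median and highest level of 639, 860 and 1669 CPM in pericytes (1047 ± 384 CPM, n = 10) and of 3.77, 21.2 and 155 CPM in smooth muscle (33.4 ± 49.8 CPM, n = 8). The ranges did not overlap, and in the 8 libraries with both classes the log2 ratio was 5.08 ± 1.38 (SD, with 10 CPM added to both sides). Abcc9, no Kcn gene but the sulfonylurea receptor that joins Kcnj8 in that channel, had 249, 438 and 781 CPM in pericytes (449 ± 169 CPM) and 10.0 ± 22.3 CPM in smooth muscle. Kcnj8 (chr6:142564837-142571614) and Abcc9 (chr6:142587862-142702315) lie 16.2 kb apart on the minus strand. Among pericytes, Kcnj8 was between 1165 and 1669 CPM in the 4 libraries of replicates 2 and 3 and between 639 and 877 CPM in the 6 others. Abcc9 was between 249 and 374 CPM in those 4 and between 318 and 781 CPM in the 6 others.

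Kcne4, a single-pass partner subunit that inhibits Kv channels, fell into 2 groups of libraries that cut across the ranks. In pericytes it stood at 1634, 1337, 1493 and 1361 CPM in replicates 2 and 3 of rank 1 and rank 4. In replicates 1, 4 and 5 of both ranks it lay between 105 and 184 CPM, so that the mean of 667 ± 684 CPM (n = 10) describes no library. Smooth muscle showed the same division, with 635 to 852 CPM in replicates 2 and 3 and 38.9 to 119 CPM in the 4 others. Pericytes were above smooth muscle for Kcne4 in all 8 libraries with both classes, by 0.94 ± 0.23 on the log2 scale. The same 4 libraries held the least RNA of excitatory markers in astrocytes. The 6 excitatory markers summed to between 129 and 152 CPM in their astrocytes, and to between 228 and 660 CPM in the others. The part of either difference in the Kcne4 division was not tested, and the annotation has a gene on the opposite strand at Kcne4 (chr1:78816758-78820028).

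Smooth muscle had the highest level of 4 of the 74 members with at least 200 UMIs (5.41%, against 6.65% of all genes). Kcna5, a Kv1 pore of vascular muscle, had 0, 91.8 and 140 CPM there (78.7 ± 51.0 CPM, n = 8) from 95 UMIs in all, against 8.39 ± 6.48 CPM in oligodendrocyte precursors, the next class. Kcnab1, a cytosolic partner of Kv1 channels, had 64.6, 237 and 380 CPM in smooth muscle (233 ± 113 CPM) and was below it in pericytes in every library (log2 ratio -3.35 ± 1.43). Kcnk3, a two-pore-domain channel sensitive to acid, had 64.1 ± 15.3 CPM in smooth muscle, 55.3 ± 20.9 CPM in inhibitory neurons and 34.8 ± 21.4 CPM in pericytes, with overlapping ranges. Kcnj12, an inward rectifier, had 49.7 ± 27.6 CPM in pericytes and 30.8 ± 15.9 CPM in smooth muscle, also with overlapping ranges. Over 34 members with at least 10 CPM on average, 2 were higher in pericytes than in smooth muscle in every library (5.88%, against 6.84% of all genes) and 3 were lower (8.82%, against 5.23%). These shares are near those of all genes, so the mural contrast rests on single members.

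**Figure D2:**
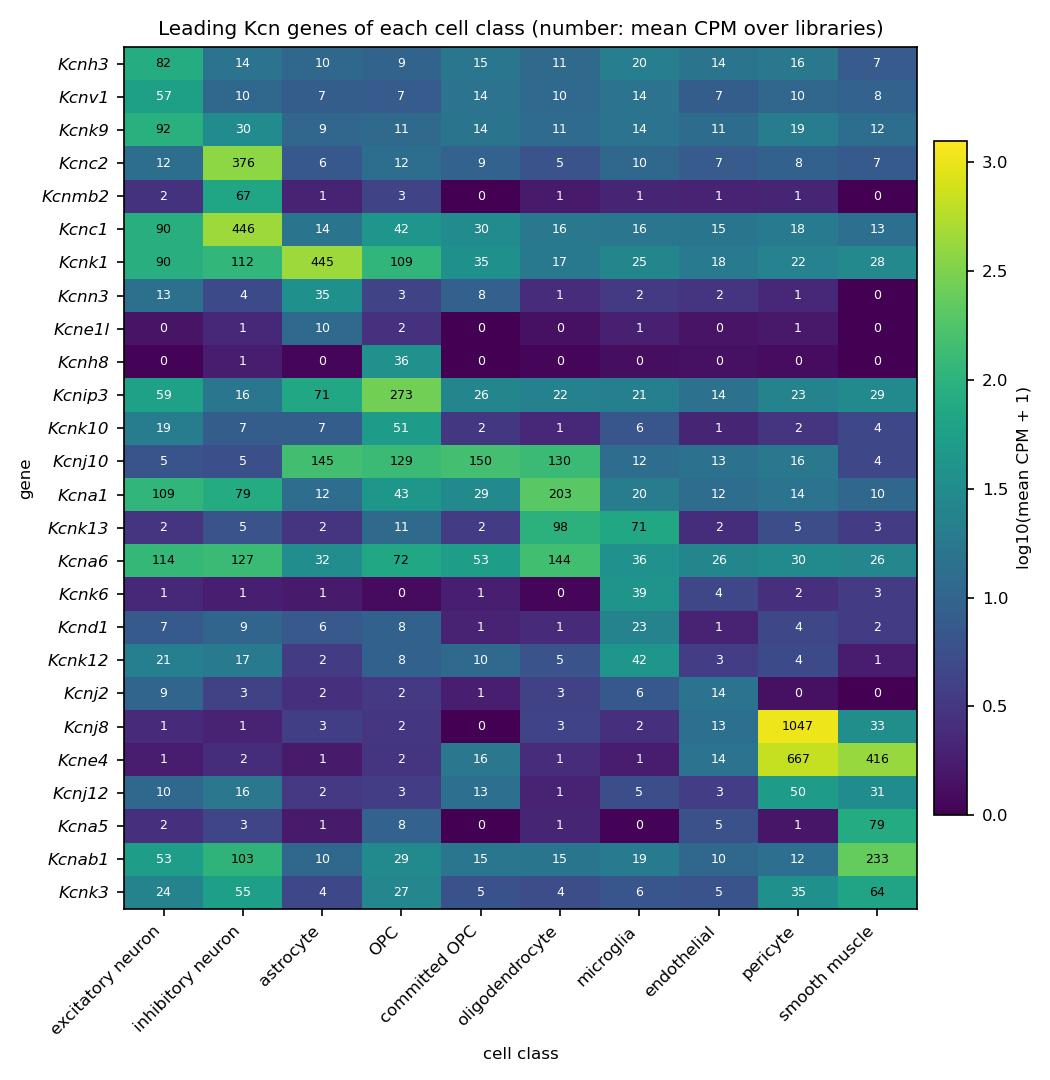
Mean level (printed number and colour, CPM, colour on a log10 scale of CPM + 1) of the genes with the largest lead in each cell class (rows), across 10 classes (columns). Kcnj8 stands at 1047 CPM in pericytes and 33 CPM in smooth muscle, and Kcnh8 is at 36 CPM in oligodendrocyte precursors and at 1 CPM or less elsewhere.

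Inhibitory neurons had the highest level of 3 of the 4 Kv3 genes, pores of fast channels that let a neuron fire at high rates, and excitatory neurons that of the other one. Kcnc2 had 136, 409 and 596 CPM in inhibitory neurons (376 ± 154 CPM, n = 10) and 4.82, 11.2 and 21.7 CPM in excitatory neurons (12.3 ± 6.00 CPM). Kcnc1 had 306, 427 and 619 CPM in inhibitory neurons (446 ± 116 CPM) and 59.2, 97.1 and 113 CPM in excitatory neurons (90.4 ± 19.0 CPM). Neither pair of ranges overlapped, and the log2 ratios were 4.02 ± 0.95 for Kcnc2 and 2.17 ± 0.26 for Kcnc1. Kcnmb2, a subunit that inactivates the large-conductance channel, had 66.7 ± 19.7 CPM in inhibitory and 1.81 ± 1.07 CPM in excitatory neurons (log2 ratio 2.65 ± 0.50). Of 51 members with at least 10 CPM, 12 were higher in inhibitory neurons in all 10 libraries (23.5%, against 10.5% of all genes), and 18 were lower (35.3%, against 13.7%). In replicates 1 to 3 alone the higher share was 27.5%, against 12.7%, and in replicates 4 and 5 alone it was 26.4%, against 28.6%. The higher ones also included the Kv1 pore Kcna2, the modulatory subunit Kcns3 and the partner subunits Kcnip1, Kcnab1 and Kcnab3.

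Excitatory neurons led for pores of several families. Kcnh3, a slow channel of forebrain neurons, had 60.0, 81.2 and 101 CPM there (81.6 ± 11.0 CPM, n = 10) and 3.53 to 26.6 CPM in inhibitory neurons, with no overlap and a log2 ratio of -1.98 ± 0.40 for inhibitory against excitatory neurons. The silent subunit Kcnv1, which forms no channel alone, had 57.2 ± 12.2 CPM, and the two-pore-domain leak channel Kcnk9 had 91.9 ± 31.6 CPM. Other channels were abundant in both kinds of neuron. Kcnma1, the large-conductance calcium-activated pore, had 326 ± 111 CPM in excitatory and 200 ± 81.1 CPM in inhibitory neurons. Kcnj9, a G-protein-gated inward rectifier, had 178 ± 41.3 and 110 ± 43.1 CPM, and Kcnip4, a partner of Kv4 channels, had 95.1 ± 36.4 and 86.6 ± 40.7 CPM, with overlapping ranges for each of these genes. The most counted member was the non-coding Kcnq1ot1, at 453 ± 192 CPM in excitatory neurons. It is transcribed antisense to a Kcn gene, and whether the counting used strand is not given in the sources used here.

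Astrocytes had the highest level of 6 of the 74 members with at least 200 UMIs. Kcnk1, a two-pore-domain channel, had 289, 419 and 604 CPM in astrocytes (445 ± 119 CPM, n = 10) and 112 ± 21.8 CPM in inhibitory neurons, the next class, without overlap. Kcnj10, the inward rectifier through which glia take up potassium, had no single glial class. Its levels were 150 ± 65.8 CPM in committed precursors (n = 7), 145 ± 37.6 CPM in astrocytes, 130 ± 51.2 CPM in oligodendrocytes and 129 ± 33.6 CPM in oligodendrocyte precursors, and these neighbours did not differ beyond their spread. Kcnj10 had 5.44 CPM in excitatory neurons. Kcnj16, which joins Kcnj10 in mixed channels, had 110 ± 44.1 CPM in astrocytes and 61.1 ± 16.8 CPM in oligodendrocyte precursors. Kcnk2, a two-pore-domain channel opened by stretch, had 200 ± 48.1 CPM in astrocytes and 176 ± 38.0 CPM in precursors. The calcium-activated Kcnn2 and Kcnn3 had 135 ± 55.3 and 34.8 ± 19.97 CPM in astrocytes, and the single-pass partner Kcne1l had 10.4 ± 3.79 CPM there. Of 47 members, the 6 pore genes named here were above excitatory neurons in all 10 libraries (12.8%, against 23.1% of all genes), and 39 were below (83.0%, against 38.3%). Against oligodendrocyte precursors, astrocytes were higher in every library for 5 of 37 members (13.5%, against 11.6%), Kcnn2, Kcnk1, Kcnn3, Kcnj16 and the Kv1 pore Kcna2, and lower for 19 (51.4%, against 25.1%).

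The oligodendrocyte lineage differed by stage. In precursors Kcnip3, a calcium-binding partner of Kv4 pores, had 225, 261 and 352 CPM (273 ± 38.2 CPM, n = 10) against 71.3 ± 14.4 CPM in astrocytes. Kcnh8, a channel of the same subfamily as Kcnh3, had 5.04, 27.5 and 78.1 CPM in precursors (36.1 ± 25.3 CPM) and 0.709 ± 1.18 CPM in inhibitory neurons, the next class. Kcnh8 reached 49.4 to 78.1 CPM in replicates 4 and 5 and 5.04 to 31.1 CPM in replicates 1 to 3. Kcnk10 had 50.8 ± 10.9 CPM in precursors and the Kv4 pore Kcnd2 had 134 ± 32.8 CPM, the latter overlapping both neuron classes. Mature oligodendrocytes were above precursors in every library for 3 of 37 members (8.11%, against 6.22% of all genes): Kcnk13 (log2 ratio 2.39), Kcna1 (2.05) and Kcna6 (0.91). They were below for 16 of 37 (43.2%, against 24.2%). Kcna1, a Kv1 pore that in axons sits beside the node of Ranvier, had 69.0, 223 and 285 CPM in oligodendrocytes (203 ± 64.5 CPM) and 109 ± 48.9 CPM in excitatory neurons. Kcna6, another Kv1 pore, had 144 ± 42.3 CPM in oligodendrocytes and 127 ± 34.7 CPM in inhibitory neurons, with overlapping ranges.

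Microglia and endothelial cells had few members at more than a low level. Kcnk13, a two-pore-domain channel known as a main resting potassium conductance of microglia, had 24.6, 74.2 and 119 CPM in microglia (71.2 ± 32.8 CPM, n = 10). It was at 44.0, 94.1 and 186 CPM in oligodendrocytes (97.8 ± 43.3 CPM), an overlapping range, and at 10.8 ± 8.63 CPM in oligodendrocyte precursors, the next class. Kcnk6, of the same two-pore-domain family, had 10.7, 44.1 and 67.7 CPM in microglia (39.2 ± 21.8 CPM) and 3.55 ± 2.96 CPM in endothelial cells, without overlap. Microglia were above endothelial cells in all 10 libraries for 4 of 35 members (11.4%, against 10.8% of all genes): Kcnk13, Kcnk6, the two-pore-domain Kcnk12 (42.1 ± 17.5 CPM in microglia) and the Kv4 pore Kcnd1 (23.2 ± 13.02 CPM). They were below for 0 of 35 (0.0%, against 18.0%). Kcnj2, the inward rectifier of capillary endothelium, had 2.68, 12.01 and 26.7 CPM in endothelial cells (14.0 ± 8.89 CPM, 95 UMIs), which overlapped 9.28 ± 2.15 CPM in excitatory neurons.

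**Figure D3:**
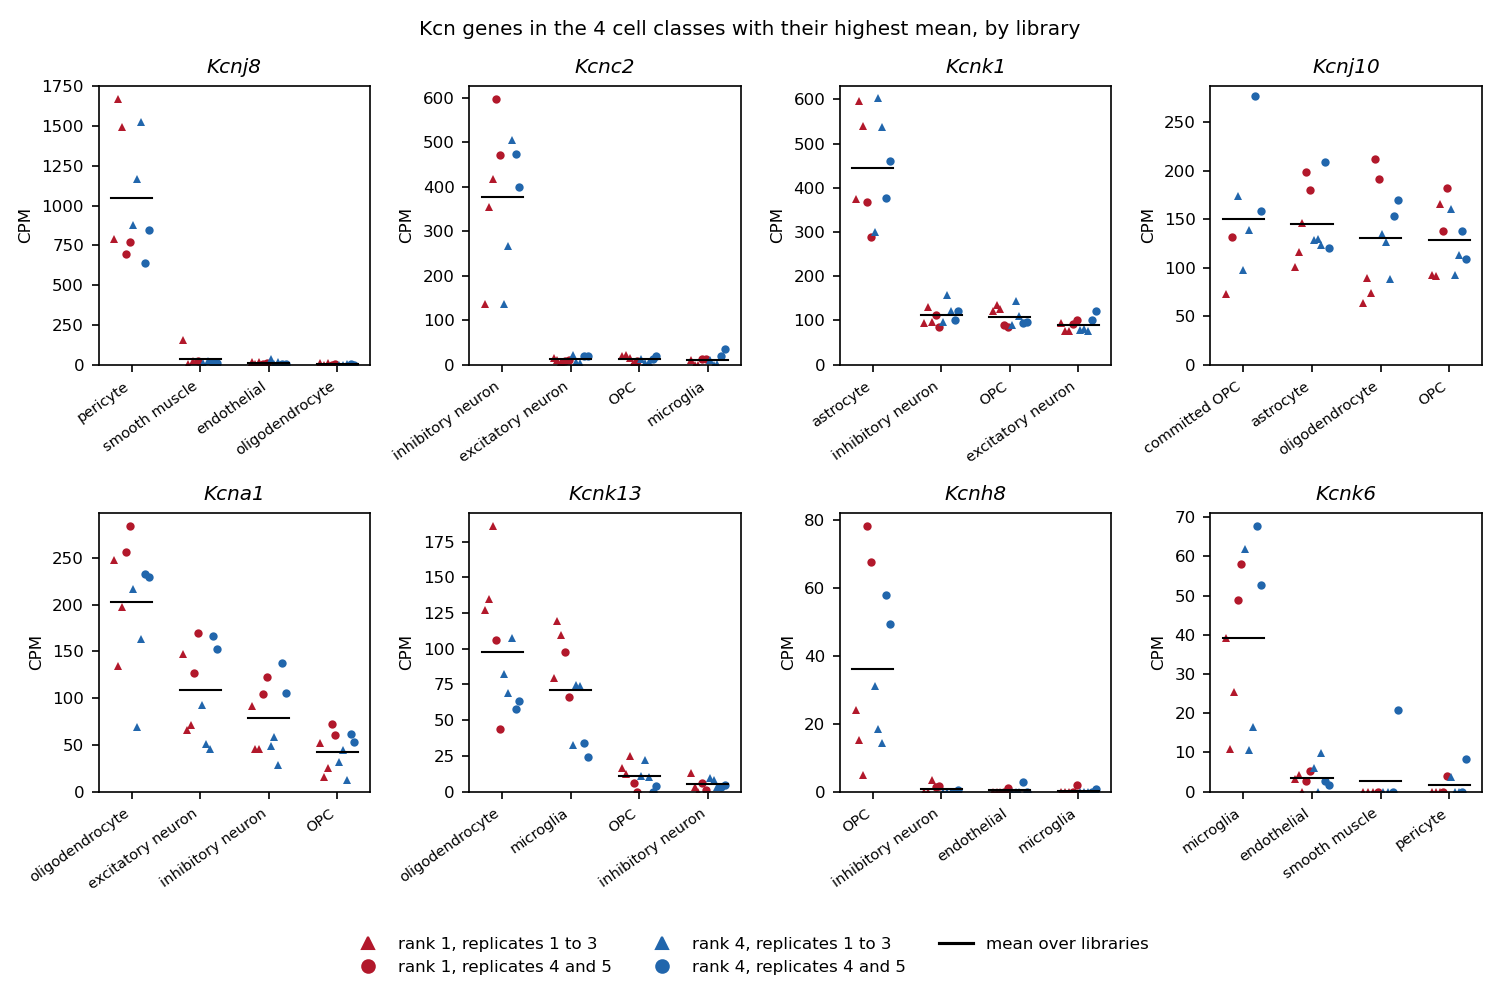
Level (vertical axis, CPM) of 8 Kcn genes in the 4 classes with their highest mean (horizontal axis), with 1 point per library, colours for rank, shapes for the technical set and a line for the mean. Kcnj8 in pericytes, Kcnc2 in inhibitory neurons and Kcnk1 in astrocytes lie apart from every other class shown, while the 4 glial classes of Kcnj10 overlap.

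Neighbouring genes on a chromosome could have the same leading class or different ones. Kcnj9, led by excitatory neurons, and Kcnj10, led by glia, lie 11.9 kb apart on opposite strands of chromosome 1. Kcnj16, led by astrocytes, and Kcnj2, led by endothelial cells, lie 38.2 kb apart on chromosome 11. On chromosome 6 the Kv1 genes Kcna5, Kcna1 and Kcna6 follow each other with gaps of 105.0 and 61.9 kb. Kcna5 was led by smooth muscle, while Kcna1 and Kcna6 were both led by oligodendrocytes, and Kcnj8 and Abcc9, on the same chromosome, were both led by pericytes.

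RNA of excitatory markers was also counted in other classes, which limits the reading of low levels. Whether it came from broken cells was not tested. The 6 excitatory markers, genes that other classes should lack, stood at a median of 15.2% of their excitatory level in astrocytes, 15.4% in endothelial cells, 16.5% in oligodendrocyte precursors, 17.4% in oligodendrocytes, 19.98% in pericytes, 20.2% in microglia and 11.8% in smooth muscle. Of 27 members led by excitatory neurons with at least 10 CPM there, 17 were at or below that share in astrocytes, 17 in endothelial cells, 12 in oligodendrocyte precursors, 20 in oligodendrocytes, 17 in pericytes, 14 in microglia and 7 in smooth muscle. These values are read as background. Single markers spread around the median, from 13.4% to 38.6% in astrocytes and from 13.2% to 39.2% in oligodendrocyte precursors. In inhibitory neurons, where the marker share was 9.73%, 0 of the 27 were at or below it. The median UMI counts per cell were 2428 in excitatory neurons, 2760 in inhibitory neurons and 1016 to 1789 in the glial and vascular classes.

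The neuron subclasses were named in the same way from layer and interneuron markers. Parvalbumin (Pvalb) interneurons, which fire fast, had a member share with a lowest, median and highest value of 0.449%, 0.736% and 0.756% over 5 libraries. Their share was above that of every other subclass in the 4 libraries of replicates 4 and 5. In rank 1 replicate 1, the only one of replicates 1 to 3 with enough Pvalb cells, it was 0.4494%, beside 0.4501% in near-projecting cells. Kcnc1 stood there at 745, 729, 1234, 1096 and 1131 CPM and Kcnc2 at 360.5, 1304, 1002, 979.5 and 899 CPM, in rank 1 replicates 1, 4 and 5 and rank 4 replicates 4 and 5. Somatostatin (Sst) interneurons had 282 ± 93.7 CPM of Kcnc2 (n = 7) and Vip interneurons had 127 ± 81.5 CPM (n = 6). Of 49 members, 16 were higher in Pvalb than in Sst cells in all 5 libraries with both (32.7%, against 9.13% of all genes), and 12 were lower (24.5%, against 11.3%). Without rank 1 replicate 1, which leaves the 4 libraries of replicates 4 and 5, 25 of 49 were higher (51.0%, against 14.4%). Kcnip2, the Kv4 partner, had the largest lead, with 96.1 to 323 CPM in Pvalb and 16.7 to 51.7 CPM in Sst cells (log2 ratio 2.26 ± 0.45). Kcnab3 was also higher, at 84.8 ± 30.6 CPM in Pvalb and 13.5 ± 9.39 CPM in Sst cells. Against Vip cells, 18 of 50 members were higher in Pvalb (36.0%, against 10.5%) and 8 were lower (16.0%, against 11.0%).

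Other interneurons had leads of their own. Vip cells held the sodium-activated pore Kcnt2 at 73.0 ± 15.1 CPM and the Kv2 pore Kcnb2 at 133 ± 46.7 CPM. Lamp5 cells held Kcnn2, a small-conductance calcium-activated channel that follows spikes with a hyperpolarisation, at 272 ± 102 CPM (n = 6). Sst cells led the interneurons for Kcnd2 (179 ± 52.2 CPM), for the silent subunit Kcnf1 (121 ± 15.5 CPM) and for Kcnmb4 (83.0 ± 27.2 CPM), a subunit of the large-conductance channel.

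Projection neurons differed by layer. Near-projecting (NP) cells of layers 5 and 6 held Kcnk2 at 201, 322 and 410 CPM (328 ± 73.9 CPM, n = 8), while pyramidal tract (PT) cells of layer 5 had 0 to 14.6 CPM, a log2 ratio of 4.42 ± 0.31 without overlap. PT cells held the silent subunit Kcng1 at 66.1, 124 and 162 CPM (119 ± 36.4 CPM, n = 9), against 5.42 to 40.6 CPM in layer 2/3 intratelencephalic (IT) cells (log2 ratio 2.36 ± 0.46). In the opposite direction Kcnip2 had 81.3 to 120 CPM in layer 2/3 IT cells and 4.22 to 17.2 CPM in PT cells (log2 ratio -2.57 ± 0.41 for PT against IT). Layer 2/3 IT cells also led for Kcnh3 (151 ± 22.0 CPM) and Kcnh4 (17.4 ± 4.58 CPM). Layer 5 IT cells led for Kcnh1 (96.3 ± 17.8 CPM) and Kcnq3 (158 ± 59.6 CPM), and corticothalamic (CT) cells of layer 6 for Kcnip3 (121 ± 22.1 CPM).

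Counted over all libraries with both subclasses, 10 of 51 members were higher in PT than in layer 2/3 IT cells (19.6%, against 8.55% of all genes) and 12 were lower (23.5%, against 7.58%). CT cells were above layer 2/3 IT cells for 12 of 51 (23.5%, against 11.1%) and below for 14 (27.5%, against 11.4%). NP cells were above PT cells for 10 of 49 (20.4%, against 8.63%) and below for 12 (24.5%, against 9.01%). In each of these contrasts between neuron subclasses the members' share was above that of all genes in both directions.

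**Figure D4:**
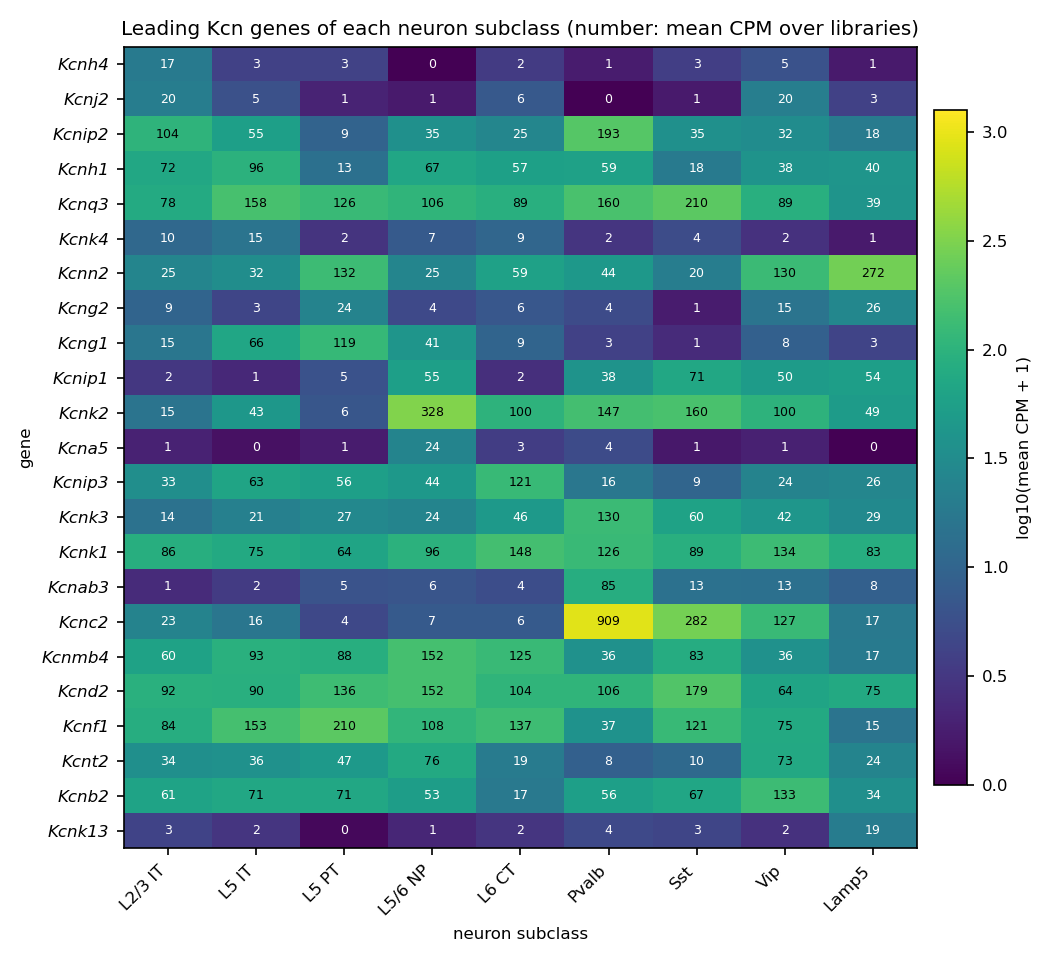
Mean level (printed number and colour, CPM, colour on a log10 scale of CPM + 1) of the genes with the largest lead in each neuron subclass (rows), across 5 excitatory and 4 inhibitory subclasses (columns). Kcnc2 stands at 909 CPM in Pvalb and 17 CPM in Lamp5 cells, and Kcnk2 at 328 CPM in L5/6 NP and 6 CPM in L5 PT cells.

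The technical sets differed for many members in neurons and astrocytes. With edgeR's quasi-likelihood test and rank in the model, 36 of 63 members tested in excitatory neurons passed as higher in replicates 4 and 5 than in replicates 1 to 3 (25.0% of all genes passed in that direction), and 1 was lower (27.4% of all genes). The members' median log2 difference was 0.49, against -0.04 for all genes. In inhibitory neurons 19 of 47 were higher (17.1% of all genes) and 1 lower (19.7%), and in astrocytes 15 of 39 were higher (21.0%) and 2 lower (24.1%). The summed excitatory markers in astrocytes also differed, with a median of 143 CPM in replicates 1 to 3 (129 to 424 CPM) and of 601 CPM in replicates 4 and 5 (228 to 660 CPM). Their part in the astrocyte counts was not tested. Examples in excitatory neurons were Kcnip4 (log2 difference 0.90, SE 0.15, adjusted p 0.00044) and Kcnj9 (0.58, SE 0.10, adjusted p 0.00083). The partner subunit Kcnab2 went the other way (-0.67, SE 0.17, adjusted p 0.0073). In mural cells few members were tested and none was higher: 0 of 4 in pericytes (17.1% of all genes) and 0 of 3 in smooth muscle (14.4%). Kcne4 alone was lower, as 1 of 4 in pericytes (15.7% of all genes; log2 difference -2.78, SE 0.70, adjusted p 0.011) and 1 of 3 in smooth muscle (16.0%; -2.96, SE 0.72, adjusted p 0.014). The members' median was -0.87 in pericytes and -0.71 in smooth muscle. For Kcne4 the sets do not describe the division, since replicate 1 was as low as replicates 4 and 5. Kcnj8 in pericytes divided likewise, with replicates 2 and 3 above replicates 1, 4 and 5. The comparison of the sets was chosen after the data were seen. Where the sets do describe a difference, the gene list, the barcode set and any other difference between them cannot be told apart.

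The rank comparison asked whether any potassium channel differed between dominant and subordinate mice within a class. UMIs were summed per library and class and tested with edgeR's quasi-likelihood test with the technical set as covariate, and p-values were adjusted over all genes of a class. No member passed in any of 9 classes (0 of 217 tests), where 0.0% of 61493 tests of all genes passed. At an unadjusted p under 0.05 there were 6 members (2.76%), against 2.36% of all genes. In 8 neuron subclasses 0 of 287 member tests passed, where 0.0371% of 51169 tests passed, all 19 of them in Vip cells. Unadjusted, 15 members were under 0.05 (5.23%, against 4.37%). DESeq2 also called 0 members in classes and in subclasses, where 0.00163% and 0.0% of all tests passed. At an unadjusted p under 0.05 it had 4 members in classes (1.84%, against 1.85% of all genes) and 9 in subclasses (3.14%, against 2.47%). In simulated excitatory neuron counts the test recovered 72.7% of genes changed by 1 on the log2 scale and 100% of those changed by 2. Only genes with higher counts were changed. The simulation held no difference between technical sets and no link between same-numbered libraries. Other classes and the subclasses, with fewer cells, were not simulated, so these rates do not apply to them.

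The median member difference, rank 1 minus rank 4 on the log2 scale, was -0.04 in excitatory neurons (24 of 63 higher in rank 1, all genes 0.00) and 0.00 in inhibitory neurons (24 of 47 higher, all genes 0.01). In astrocytes it was -0.37 with 9 of 39 higher (all genes -0.02), and in endothelial cells -0.57 with 2 of 19 higher (all genes 0.00). Single libraries moved these medians. Without rank 4 replicate 1 the median was 0.02 in astrocytes (19 of 37 higher), -0.12 in endothelial cells (9 of 21 higher) and 0.02 in excitatory neurons (38 of 67 higher). Leaving out rank 1 replicate 1 gave -0.67 in astrocytes and -0.10 in excitatory neurons. The astrocyte median became -0.19 when rank 1 replicate 3 was left out, and the excitatory median became -0.09 when rank 4 replicate 3 was. The inhibitory median lay between -0.05 and 0.05 over the 10 left-out libraries. In all libraries together, the excitatory markers went the same way as the members: 6 of 6 were lower in rank 1 in astrocytes, with a median of -0.39, and 5 of 5 tested were lower in endothelial cells, with a median of -0.38. Their summed level was between 129 and 560 CPM in rank 1 astrocytes and between 131 and 660 CPM in rank 4 astrocytes. Their part in the member medians was not tested.

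The genes below were picked for the smallest unadjusted p-values, and none passed in edgeR's adjusted test. Agreement between pairs and separation of ranges partly follow from that choice and are no further support. The share of all genes with such agreement was not counted. Kcnn3, a small-conductance calcium-activated channel, stood in layer 6 CT cells at 9.93, 17.8, 19.7 and 12.7 CPM in rank 1 replicates 1, 3, 4 and 5 and at 7.04, 4.67, 9.60 and 6.26 CPM in the same replicates of rank 4. Every rank 1 value lay above every rank 4 value (log2 difference 0.92, SE 0.31, edgeR p 0.0082, adjusted p 1.00), from 1 to 51 UMIs per library. Kcnk13 in microglia was counted at 79.4, 119, 109.6, 98.0 and 66.4 CPM in replicates 1 to 5 of rank 1. The same replicates of rank 4 had 32.3, 74.8, 73.6, 33.9 and 24.6 CPM. Rank 1 was higher in 5 of 5 same-numbered pairs, and the ranges overlapped (log2 difference 1.05, SE 0.36, edgeR p 0.0118, adjusted p 1.00), from 5 to 73 UMIs per library.

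The other leading pairs were smaller or noisier. Kcns3, a silent subunit, had 46.2 ± 12.4 CPM in rank 1 and 25.5 ± 8.65 CPM in rank 4 inhibitory neurons and was higher in 5 of 5 pairs (log2 difference 0.68, edgeR adjusted p 1.00). Kcnip4 had 121 ± 59.9 and 94.5 ± 47.7 CPM in layer 5 IT cells, also higher in 5 of 5 pairs (0.38, edgeR adjusted p 0.93). Kcna1 in Sst cells had 105 ± 31.4 CPM in 3 rank 1 libraries and 45.5 ± 34.5 CPM in 4 rank 4 libraries (0.93, edgeR adjusted p 0.86). Kcns3 rested on 2 to 58 UMIs per library and Kcna1 on 0 to 25.

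With the replicate number as a block, 2 members passed in classes (198 of 61493 tests of all genes, 0.322%) and 1 in subclasses (227 of 51169, 0.444%). Both members that passed in classes did so in astrocytes as lower in rank 1, where 70 genes or 0.656% passed in that direction. The 6 excitatory markers, at 15.2% of their excitatory level in astrocytes, were lower in rank 1 with the block in 6 of 6 cases as well, and 1 passed. Their part in the member calls was not tested. The member that passed in subclasses did so in layer 5 IT neurons, also as lower in rank 1, where 0.506% of genes passed in that direction. None of these members passed in edgeR's test without the block.

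At an unadjusted p under 0.05 the block gave 47 of 217 members in classes (21.7%, against 10.4% of all genes), of which 36 were lower in rank 1 and 11 higher. In subclasses it gave 28 of 287 (9.76%, against 8.69%), 14 in each direction. Astrocytes held 20 of 39 (51.3%, against 13.1%), 18 of them lower, and endothelial cells 11 of 19 (57.9%, against 11.3%), all lower. The excitatory markers tested in endothelial cells were also lower with the block, in 5 of 5 cases with a median of -0.43, and 1 passed. Their part in these counts was not tested. Each same-numbered pair of libraries was then left out in turn, an alternative chosen after the data were seen. Without the pair of replicate 1, 19 of 188 members were under 0.05 in classes (10.1%, against 8.35%), 10 of them lower, and 0 passed after adjustment. In astrocytes 6 of 31 were then under 0.05 (19.4%, against 10.4%), and in endothelial cells 3 of 8 (37.5%, against 10.2%). Without the pair of replicate 2, 3, 4 or 5 the share in classes was 19.0%, 20.2%, 15.6% and 16.8%, against 10.2%, 8.79%, 9.67% and 9.65% of all genes. Kcnk13 in microglia passed with the block when the pair of replicate 4 was left out (log2 difference 1.00, edgeR adjusted p 0.042) and had edgeR adjusted p-values of 0.14 to 0.80 when another pair was.

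**Figure D5:**
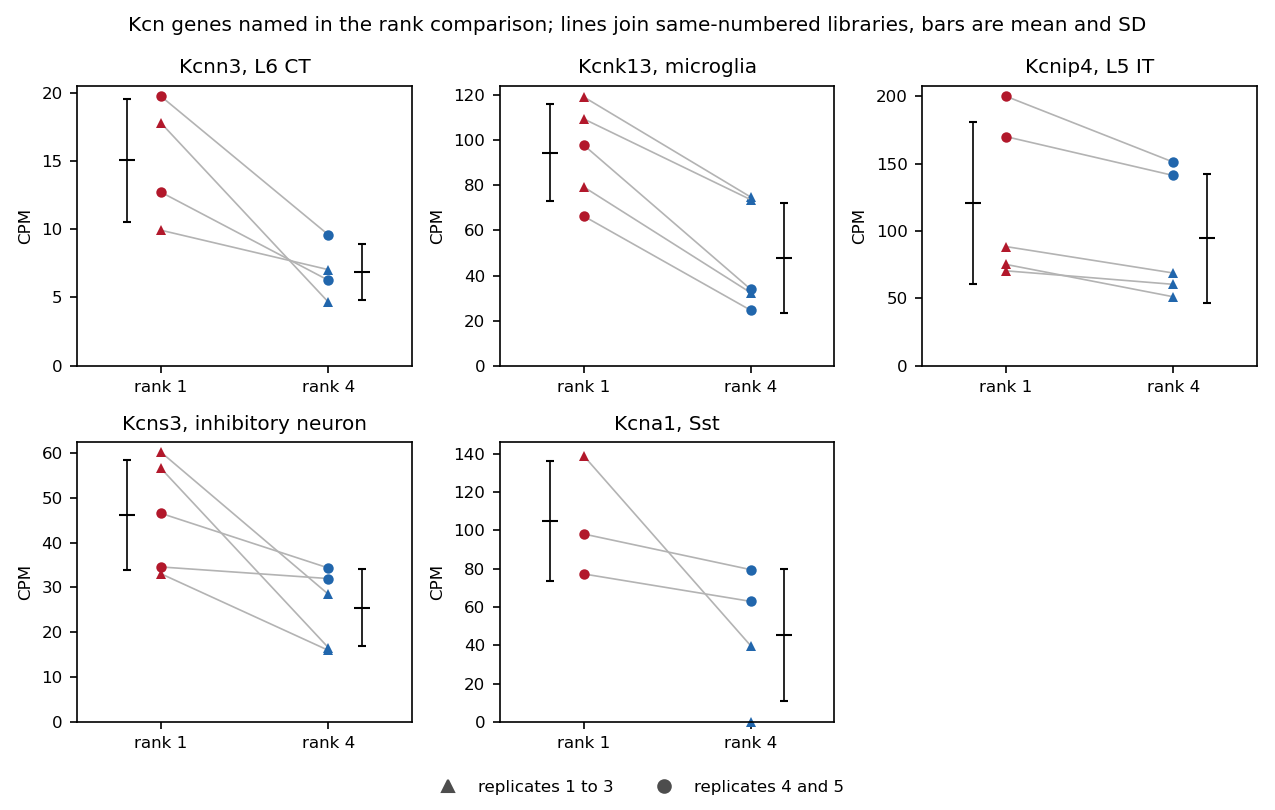
Level (vertical axis, CPM) in rank 1 and rank 4 libraries of the 5 gene and class combinations named in the rank comparison, with lines joining same-numbered libraries, shapes for the technical set, and bars for mean and SD. Kcnk13 in microglia falls from rank 1 to rank 4 along all 5 lines, and Kcnn3 in L6 CT cells along all 4. The combinations were picked for small unadjusted p-values in these libraries, so this agreement is no further support.

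Genes that work with potassium channels or move potassium without a Kcn name were taken as a list of 24, among them Abcc9, the Kv4 partners Dpp6 and Dpp10 and the chloride exporter Slc12a5. Between the ranks 0 of 117 tests passed in classes and 0 of 127 in subclasses with edgeR, with 1 and 4 at an unadjusted p under 0.05, where 2.36% and 4.37% of all tests were. DESeq2 gave 0 and 0, with 1 and 2 unadjusted, where 1.85% and 2.47% of all tests were. With the replicate block 3 passed in classes and 1 in subclasses, all lower in rank 1, where 0.322% and 0.444% of all tests passed. In classes the count was 0, 5, 1, 1 and 5 without the pair of replicate 1, 2, 3, 4 and 5, and in subclasses it was 0 or 1. The calls with all pairs included the neuronal chloride exporter Slc12a5 in astrocytes (log2 difference -0.76). The excitatory markers were also lower in rank 1 astrocytes with the block, in 6 of 6 cases (median -0.44), and 1 passed. Their part in that call was not tested. The median of the listed genes in the main test was -0.03 in excitatory neurons (9 of 20 higher in rank 1, all genes 0.00) and -0.09 in astrocytes (2 of 17 higher, all genes -0.02). Over all classes, 42 of 117 differences were higher in rank 1, and over all subclasses 58 of 127.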

How the data were processed

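Single-cell RNA-seq of mPFC was deposited as 10 count matrices, 5 libraries per rank. The deposited values are raw UMI counts per gene and barcode. Alignment was to mm10 with Cell Ranger 4.0.0, per the submitters' processing notes, while the matrices of replicates 1 to 3 name version 3.1.0, per the file headers. The lists hold 31053 and 32285 genes, and the 30406 shared genes were used. No other filter by the authors is stated in the sources used here. The members and gene lists were chosen with earlier results of these data known.

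Doublets were called per library with Scrublet in scanpy 1.11.5; where the caller set no threshold, in 1 library, the median of 0.221 was used. Cells were scaled to 10000 counts, and 2000 variable genes without Kcn and partner genes gave 30 components, 15 neighbours and Leiden clusters at resolution 1. Clusters of at least 50 cells, a minimum chosen after seeing the data, were named from markers, and 1533 cells stayed unnamed. The 443 cells of haemoglobin-rich clusters and the classes present in 2 libraries were left out of class ranks. UMI sums per library and class (at least 20 cells) were tested between ranks with edgeR 4.0.16 in R 4.3.3 (quasi-likelihood test, TMM scaling, default low-count filter, technical set as covariate, Benjamini-Hochberg adjustment within a class, threshold 0.05). DESeq2 1.42.0 was an alternative. In the same simulation, of 12159 genes in excitatory neurons, 3.95% of calls were false. Fold changes and SEs are on edgeR's log2 scale. The libraries are pools of different mice, and p-values measure the spread between pools.

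Same-numbered libraries of the ranks deviated together, with correlations of 0.252 to 0.873 (median 0.648) over 72 pairs in classes and subclasses, so the replicate block is given beside the results it changes. Within a technical set these correlations had a median of 0.2 and a lowest value of -0.124. For the pair of replicate 1 they were 0.557 to 0.818 in 8 classes, and the covariate for the technical set does not model that pair.

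Named genes were fixed class checks, the up to 3 members with the largest lead in each class and subclass, the most counted member of each family, the 6 pairs of a member and a class with the smallest p between ranks, and members that passed with the block. Others named were chosen after their values were seen. Some genes that these rules name are not reported here. Gene positions and coding transcripts are from GENCODE M21 (GRCm38). A gene on the other strand overlaps 42 of the 97 members, and whether the counting used strand is not given in the sources used here. Outlying libraries, other scalings, filters and left-out libraries were also run.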

Additional observations from a re-analysis of the deposited data

Results flagged for a closer look

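In 5 of 136 groups of 4 or 5 libraries of one rank, 1 library stood far from the others, where chance alone would give about 7. Kcnd1 in rank 1 microglia was at 55.1 CPM in replicate 4 and between 20.7 and 29.5 CPM in the other 4 libraries. Kcnk12 in rank 1 microglia was at 79.6 CPM in the same library and between 29.5 and 42.4 CPM in the others. Kcnd2 in rank 4 oligodendrocyte precursors was at 206 CPM in replicate 4 and between 114 and 130 CPM in the others. Kcnh4 in rank 4 excitatory neurons was at 11.4 CPM in replicate 1 and between 4.82 and 6.23 CPM in the others. Kcnmb2 in rank 1 inhibitory neurons was at 25.4 CPM in replicate 1 and between 71.8 and 88.2 CPM in the others.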

How the results depend on the processing

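The count of members passing between ranks was 0 in classes and 0 in subclasses with other size factors, with DESeq2, without a covariate, without the low-count filter, with at least 1000 genes per cell, in each technical set alone and without each library in turn (range 0 to 0). It was 2 and 1 with the replicate block, and 0 to 3 in classes and 0 to 1 in subclasses with the block and without 1 same-numbered pair, an alternative chosen after the data were seen. The 5 named rank differences, picked for small p-values in the same libraries, kept their sign under every alternative that could be fitted. Counts of members by leading class moved by over 1.5 times for committed precursors in 6 of 15 alternatives (to 0 or 2, against 1), for endothelial cells in 1 (to 0 in replicates 4 and 5 alone, against 1) and for oligodendrocytes in 1 (to 5 in replicates 1 to 3 alone, against 3), and not for the other 7 classes. Some pair counts moved. Members higher in Pvalb than in Sst cells numbered 25 without rank 1 replicate 1 and in replicates 4 and 5 alone (51.0%, against 14.4% of all genes), against 16 (32.7%, against 9.13%). Members higher in PT than in layer 2/3 IT cells numbered 23 in replicates 4 and 5 alone (44.2%, against 23.2%), against 10 (19.6%, against 8.55%). Members higher in pericytes than in smooth muscle numbered 12 in replicates 4 and 5 alone (25.5%, against 24.4%) and 4 without rank 1 replicate 3 (10.5%, against 8.14%), against 2 (5.88%, against 6.84%). Those lower numbered 5 in replicates 1 to 3 alone (29.4%, against 10.3%) and 5 in replicates 4 and 5 alone (10.6%, against 13.1%), against 3 (8.82%, against 5.23%). Fewer libraries must agree in each of these. Depth limits Kcna5, Kcnj2 and Kcnd1, whose leading levels rest on 95, 95 and 124 UMIs. It also limits the rank differences of Kcnn3, Kcns3 and Kcna1, with as few as 1, 2 and 0 UMIs in a library.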
